A study of Mus musculus with 8 samples.

Results

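Of 8 brain-enriched microRNAs (miRNAs) measured in mouse lung, 5 (62.5%) gave no signal above background. By the detection rule given below, 318 of all 611 mouse miRNAs on the array (52.05%) were also detected on no array. The 8 are mmu-miR-9, mmu-miR-124, mmu-miR-128, mmu-miR-129-3p, mmu-miR-129-5p, mmu-miR-137, mmu-miR-138 and mmu-miR-153, written below without the species prefix. They were taken by exact array name from the 611 mouse miRNAs on the array. RNA came from whole lung tissue of C57BL/6 Bom Tac dams treated during pregnancy. In the Printex 90 group, dams received carbon black nanoparticles in nanopure water through the trachea, with 0.067 mg given on each of gestational days 7, 10, 15 and also 18, for a total of 0.268 mg. In the vehicle control group, dams received nanopure water through the trachea, and lungs of both groups were collected when the pups were weaned, 26 to 27 days later. Each group has 4 one-colour arrays. Whether the arrays hold separate mice is not stated, so the p-values cover only sample-to-sample spread, which may be technical. All arrays share a slide, with the Printex 90 samples in one row and the controls in the other, and the effects of row and treatment cannot be told apart.

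A miRNA is a short RNA that guides an Argonaute protein to messenger RNAs, mostly through its seed, the bases from 2 to 8 of its 5′ end, and lowers their translation and stability. miR-124 is the classic miRNA of mature neurons, where it represses genes of other tissues, and miR-9 acts in neural progenitors and in the choice between proliferation and differentiation. miR-128 restrains neuronal excitability, miR-137 and miR-138 act at synapses and dendritic spines, and the miR-129 arms and miR-153 are also abundant in neurons. Lung holds few neuronal cell bodies, although nerve fibres and pulmonary neuroendocrine cells are present.

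RefSeq sequences on build GRCm38.p6 were found for 7 of the 8 members, under the arm to which each older array name is now assigned; miR-124 is named only. They are shown because the seed sets which messages a miRNA can pair with, and because the 3 members that gave any detection call can be set beside those that gave none. Capitals mark the seed.
miR-128: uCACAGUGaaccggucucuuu
miR-129-3p: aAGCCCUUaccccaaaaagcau
miR-153: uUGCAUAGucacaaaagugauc
miR-9: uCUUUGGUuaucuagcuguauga
miR-129-5p: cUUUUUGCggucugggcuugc
miR-137: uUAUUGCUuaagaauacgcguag
miR-138: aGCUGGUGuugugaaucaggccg
The 7 sequences have 7 distinct seeds, and no other mature mouse miRNA in the RefSeq table has any of them at the same position. The seed of miR-128 occurs shifted by 1 base, at bases 3 to 9, in miR-27a-3p and miR-27b-3p, and that of miR-129-3p in miR-6991-3p. G and C made up 47.6%, 45.5% and 36.4% of miR-128, miR-129-3p and miR-153, inside the range of 34.8% to 57.1% of the other 4. miR-128 is encoded at chr1:128202404-128202424 on the plus strand, inside the gene R3hdm1, and at chr9:112118644-112118664 on the minus strand, inside Arpp21. miR-153 is encoded at chr12:117250860-117250881 on the plus strand, inside Ptprn2, which encodes a protein of secretory vesicles. The sequence printed for miR-129-3p is the 3′ arm of Mir129-2 (chr2:94241376-94241397, minus strand, inside the long noncoding gene Mir670hg). The array name carries no hairpin number, and the closest stretch of the Mir129-1 hairpin differs from it by C20U, counted from 1 at the 5′ end of the printed sequence.

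The arrays carried 13000 miRNA spots each, of which 2.25% to 2.78% were left out as outliers. A miRNA was called detected on an array if the scanner flagged 50% or more of the kept spots of any of its probes as well above background. By that rule each array detected 248 to 283 mouse miRNAs, and 240 of the 611 (39.3%) passed on all 8. Signals below are relative, meaning divided by the array's 75th percentile over those 240 miRNAs, which was 580.8 to 804.7 intensity units. The lung markers were present: the relative signal of endothelial miR-126-3p was 37.9 ± 3.53 after Printex 90 and 40.6 ± 2.62 in controls, and that of epithelial miR-200c was 1.35 ± 0.107 after Printex 90 and 1.27 ± 0.0604 in controls (SD, n = 4 each). Marker miRNAs of other tissues gave signal too, and it varied widely between arrays. Liver miR-122 was detected on 7 arrays, at 0.284 ± 0.184 after Printex 90 and 0.199 ± 0.132 in controls, with a 25.6-fold range. Striated muscle miR-1 was detected on 8, at 0.518 ± 0.691 after Printex 90 and 0.606 ± 0.350 in controls, with an 11.9-fold range.

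By the rule above, miR-128 alone of the members was detected on all 8 arrays. miR-129-3p was detected on 7 (3 Printex 90, 4 control) and miR-153 on 1 control array, while miR-9, miR-124, miR-129-5p, miR-137 and miR-138 were detected on none. That is 12.5% of the members on all arrays and 37.5% on at least 1. The count on all 8 arrays depended on the rule: it was 2, with miR-129-3p added, under 3 alternatives (outlier spots kept, 1 flagged spot enough, the scanner's own call per miRNA), 3 with the scanner's less strict flag, which added miR-153, and 0 when every probe had to pass. Under these rules, in that order, 241, 257, 282, 350 and 198 of the 611 mouse miRNAs passed on all 8 arrays. By the main rule 39.3% of all mouse miRNAs passed on all arrays and 293 of 611 on at least 1. Of the 39 herpesvirus miRNAs on the array, which lung of uninfected mice should lack, 7.69% passed on all arrays and 10.3% on at least 1. The number of members detected per array was 1.75 ± 0.50 after Printex 90 and 2.25 ± 0.50 in controls (SD, n = 4 each), a difference within the spread between arrays (two-sided exact permutation p = 0.571, where 0.0286 is the smallest p that 70 assignments can give).

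**Figure D1:**
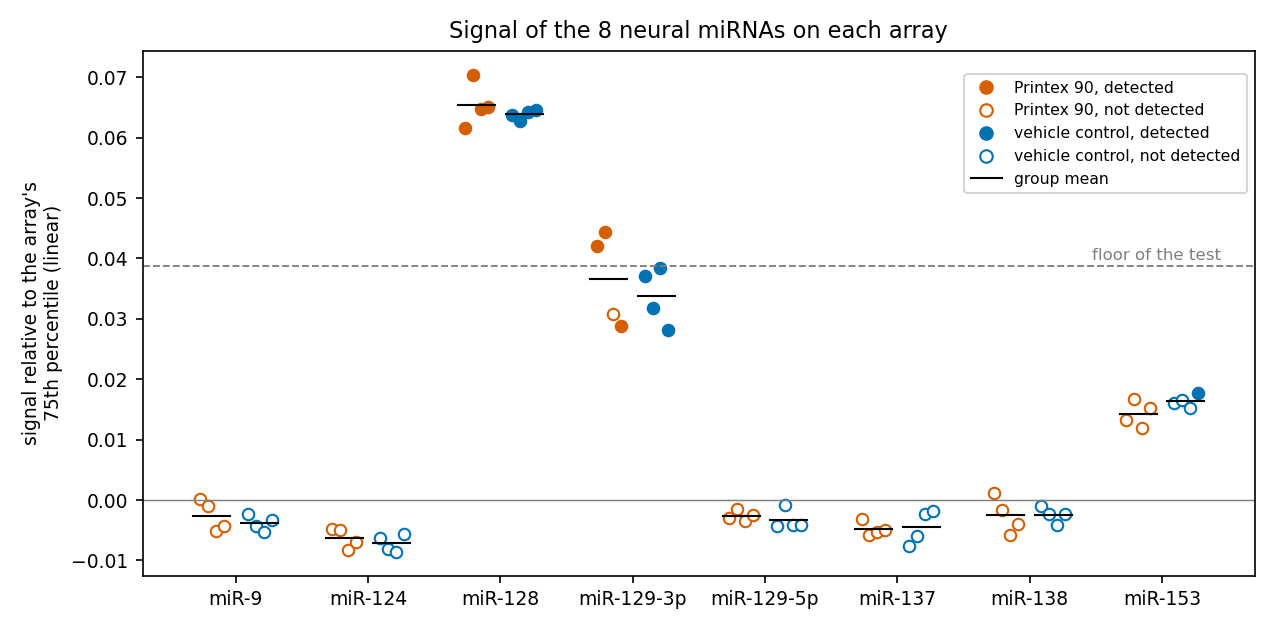
Signal of each member relative to the array's 75th percentile (linear axis, no unit), with Printex 90 arrays in orange left of vehicle control arrays in blue. Filled points are arrays on which the miRNA was detected, black lines are group means, and the dashed line is the floor of 0.0388 used in the test. miR-128 sits between 0.0616 and 0.0704 on every array, miR-129-3p around the floor, miR-153 at 0.0119 to 0.0178, and the other 5 members around 0 or below it.

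The 5 members without a detection call gave no flagged spot on any array. Each has 2 probes with 10 spots per probe on every array. None of their 777 kept spots over the 8 arrays was flagged well above background, and only 24.2% of those spots had a signal above 0 after background subtraction. Their probe means ran from -3.59 to 1.53 intensity units, with a median of -1.47. Of the spots of all 7 negative control probes, which are designed to have no target, 82.4% were above 0, with a median of 1.92 units. This median is over single spots, outliers included, while that of the members is over probe means of kept spots. Without the 1 often-flagged control probe described below, the median of the control spots was 1.65 units. For miR-124, 9.62% of its 156 kept spots were above 0. Its summed signal was -3.02, -3.56, -4.83 and -4.84 intensity units on the Printex 90 arrays, against -4.34, -5.16, -5.39 and -4.50 on the control arrays. For miR-9 it was 0.119, -0.772, -2.95 and -3.03 units on the Printex 90 arrays, against -1.61, -2.70, -3.33 and -2.60 units on the control arrays. The groups overlapped for both, and none of these signals is a measured level.

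miR-137 and miR-138 were also without a flagged spot. miR-138 had 36.7% of its 158 kept spots above 0 and measured between -3.33 and 0.73 intensity units over the 8 arrays. miR-137 measured between -5.25 and -1.42, with both ends of that range in controls. miR-129-5p, the opposite arm of the hairpin whose 3′ arm gave signal, measured between -3.32 and -0.505, and 29.2% of its 154 kept spots were above 0. The 5p arm has the same sequence in Mir129-1 and Mir129-2. Levels of the 2 arms are not compared, since they come from different probes.

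miR-128 was close to constant after the scaling used here, while its intensity before scaling varied more. On the Printex 90 arrays its relative signal was 0.0616, 0.0704, 0.0648 and 0.0651, and on the control arrays 0.0638, 0.0627, 0.0643 and 0.0647. The 4 control values lay inside the range of the Printex 90 values, so the groups overlapped. The group means were 0.0655 ± 0.00368 after Printex 90 and 0.0639 ± 0.000857 in controls (SD, n = 4 each). Before scaling, the summed intensity was 38.7, 50.8, 37.6 and 45.2 units on the Printex 90 arrays and 44.2, 39.8, 40.4 and 52.0 on the control arrays. The brightest array of each group for miR-128, Printex 90 replicate 2 and vehicle control replicate 4, was also the one with the highest 75th percentile of its group, 720.6 and 804.7 units. Over all 8 arrays the relative signal of miR-128 ranged by 1.14-fold, where the other 239 miRNAs that passed on all arrays had a median of 1.31-fold and 23 of them a smaller range. Its coefficient of variation was 4.05%, against a median of 9.03%.

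Both probes of miR-128 gave signal. The brighter probe was flagged on all 79 of its kept spots, at array means of 22.2 to 32.5 intensity units. The dimmer probe was flagged on 58 of 76 kept spots, at 14.8 to 20.01 units, with as few as 2 of 10 on Printex 90 replicate 1 and 2 of 8 on vehicle control replicate 2. miR-128 reached 50% of the kept spots of both probes on 3 Printex 90 and 3 control arrays.

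**Figure D2:**
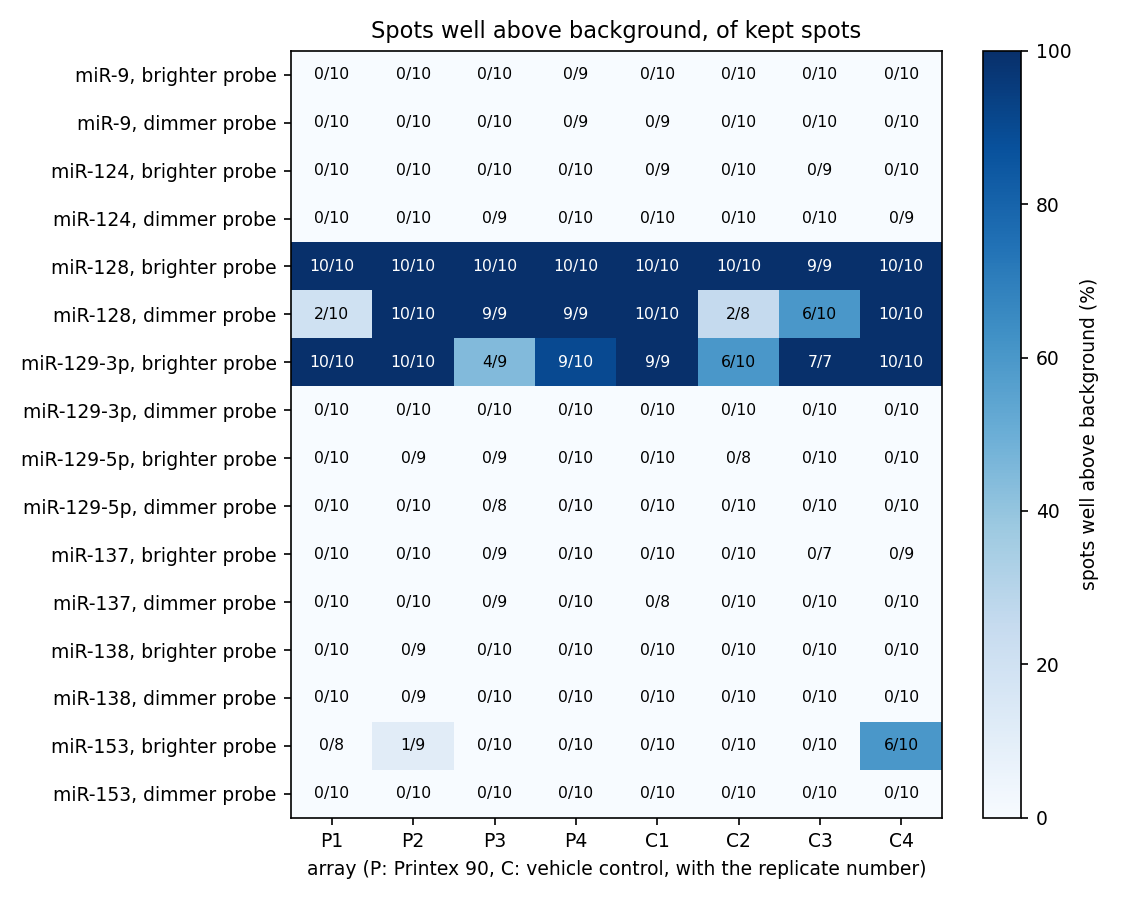
Number of spots flagged well above background out of the kept spots for both probes of each member (rows) on each array (columns, Printex 90 left of vehicle control), shaded by percent. The flags lie in miR-128, in the brighter probe of miR-129-3p and in a few spots of the brighter probe of miR-153, and the remaining 12 rows hold none.

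miR-129-3p lay at the edge of detection. Its relative signal was 0.0420, 0.0444, 0.0309 and 0.0288 on the Printex 90 arrays, and 0.0371, 0.0317, 0.0384 and 0.0282 on the control arrays. The 2 highest values were Printex 90 arrays, but the groups overlapped. The group means were 0.0365 ± 0.00784 after Printex 90 and 0.0339 ± 0.00475 in controls (SD, n = 4 each), and the 8 arrays spanned 1.57-fold. All detection calls came from the brighter probe, with 65 of 75 kept spots flagged at 14.2 to 25.3 intensity units. The other probe, at 3.15 to 6.70 units, had 0 of 80 spots flagged. Printex 90 replicate 3, the array without a call, had 4 of 9 kept spots of the brighter probe flagged, and vehicle control replicate 2, the array with the smallest share of flagged spots among those with a call, 6 of 10.

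miR-153 gave a weak signal from its brighter probe alone. Its relative signal was 0.0133, 0.0167, 0.0119 and 0.0152 on the Printex 90 arrays and 0.0160, 0.0166, 0.0153 and 0.0178 on the control arrays. The groups overlapped (exact permutation test, two-sided p = 0.171, n = 4 each). The brighter probe was flagged on 6 of 10 spots on vehicle control replicate 4, on 1 of 9 on Printex 90 replicate 2 and on none elsewhere, at array means of 7.24 to 13.95 units. The other probe stayed between -0.325 and 1.34 units. No fold is given for miR-153, because it was not detected on any Printex 90 array and its control mean lay below the lowest signal that was detected there. With a less strict flag of the scanner, which asks only that a spot be positive and significant, miR-153 was called on all 8 arrays, while the 5 members without a call stayed without one. That flag also called 350 of the 611 mouse miRNAs on all 8 arrays, and 13 of the 39 herpesvirus miRNAs on at least 1. By the stricter flag these counts were 240 and 4.

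Probes designed to have no target show what the flag does at low signal. Of the 7 negative control probes, 6 were flagged on 0.478% of their spots and had array means of 1.52 to 2.36 units. The remaining one, singled out after its values were seen, was flagged on 311 of 336 spots (92.6%), at array means of 17.0 to 26.3 units (20.7 ± 3.24 after Printex 90 and 23.8 ± 2.55 in controls, SD, n = 4 each). So the flag was also raised, at signals of this size, by a probe with no intended target. Whether the signals of miR-128, miR-129-3p and miR-153 came from their own miRNA was not tested.

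**Figure D3:**
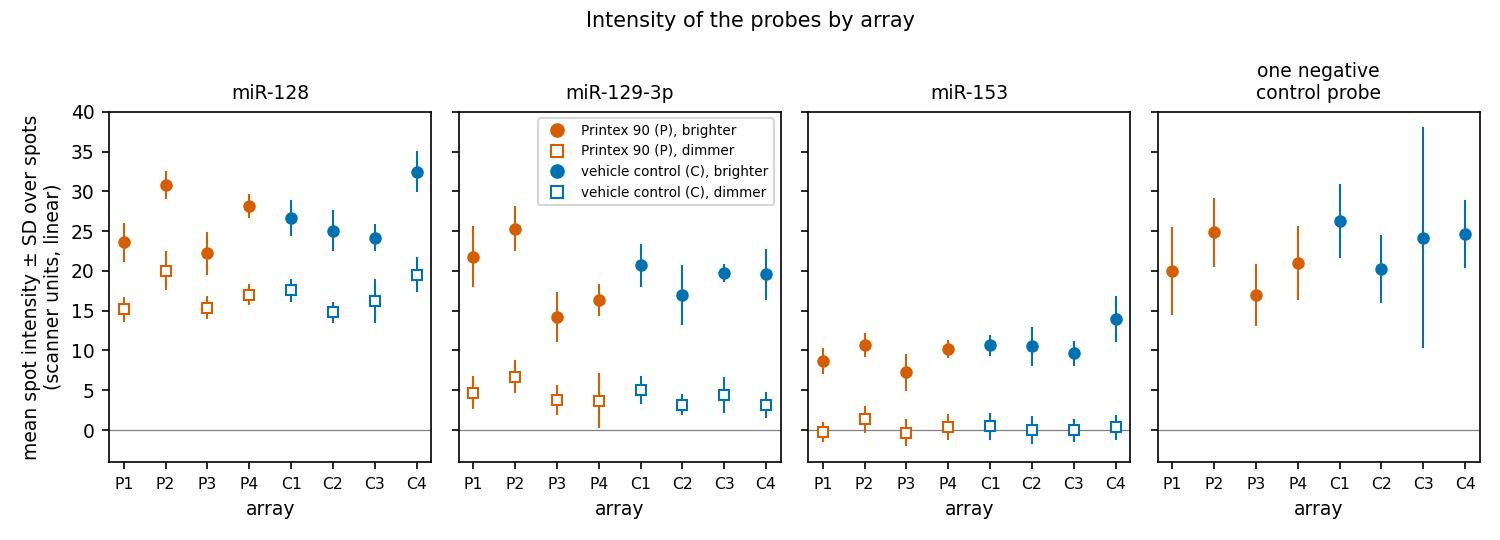
Mean spot intensity (scanner units, linear axis) of the brighter (circles) and dimmer (squares) probe of miR-128, miR-129-3p and miR-153, and of a negative control probe, on the Printex 90 arrays (P1 to P4, orange) and vehicle control arrays (C1 to C4, blue), with bars for the SD over spots. The negative control probe, at 17.0 to 26.3 units, carries signal on every array.

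The comparison of Printex 90 with vehicle control asks whether any of these miRNAs differed in lung at weaning. It was run with limma over 268 mouse miRNAs, those detected on 4 or more arrays, which left 2 of the 8 members, miR-128 and miR-129-3p. Neither passed an adjusted p of 0.05, where 0 of all 268 tested did (0%) and 15 (5.6%) had an unadjusted p under 0.05. miR-128 was 1.02-fold in Printex 90 over control (95% interval 0.956 to 1.10), a log2 difference of 0.03 (SE 0.042, limma adjusted p = 0.767). The sign turned without scaling between arrays (-0.0366) and without Printex 90 replicate 2 (-0.0017), and without Printex 90 replicate 1 the difference was 0.063. The SE depended on the scaling. It was 0.081 with the 75th percentile over all mouse miRNAs, 0.105 with quantile normalization and 0.126 without scaling. The interval leaves room for a change of up to 1.10-fold and does not show that the groups are alike. With the floor halved it ran from 0.933-fold to 1.12-fold (SE 0.059), although no array of miR-128 lay under the floor. miR-129-3p had a log2 difference of 0.08 (SE 0.047, limma adjusted p = 0.706). That value rests on the floor: all 4 control arrays and 2 Printex 90 arrays lay under 0.0388 and were set to it, which removed the spread of the controls. With the floor halved, under which every array kept its measured value, the log2 difference was 0.10 (SE 0.16, limma adjusted p = 0.827), and the interval widened to 0.826-fold to 1.38-fold. The 2 tested members had a median log2 difference of 0.06, where all 268 had -0.05. Groups that did not overlap made up 2.24% of the tested miRNAs, and neither member was among them.

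**Figure D4:**
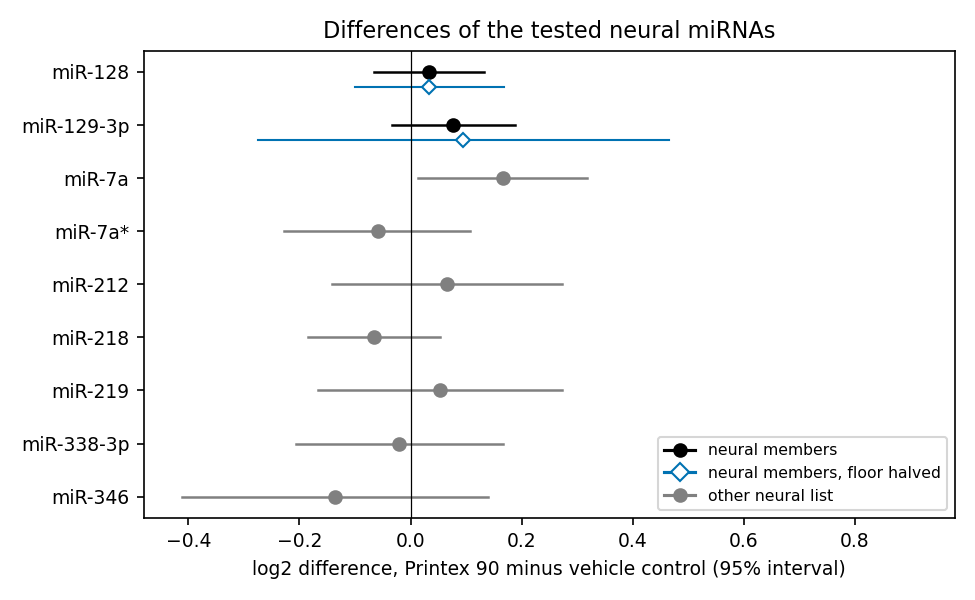
Log2 differences (Printex 90 minus vehicle control) with 95% intervals from limma for the 2 tested members (black, and with the floor halved as blue diamonds) and the 7 tested miRNAs of the other neural list (grey). All intervals include 0 except that of miR-7a, and the interval of miR-129-3p widens to between -0.28 and 0.47 with the floor halved.

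A further list of 22 miRNAs known from neurons, glia or neuroendocrine cells was read beside the members. Of these, 7 (31.8%) were detected on all 8 arrays, against 39.3% of all 611 mouse miRNAs. On no array were 13 (59.1%) detected, against 52.05% of all mouse miRNAs. Among the 13 were miR-9*, miR-124* and miR-138*, the opposite strands of 3 members. The 7 tested miRNAs were miR-7a, miR-7a*, miR-212, miR-218, miR-219, miR-338-3p and miR-346. Of these, 3 had a positive and 4 a negative log2 difference, with a median of -0.02, and 0 passed. miR-7a, a miRNA of neuroendocrine and endocrine cells as well as neurons, had a relative signal of 0.0811, 0.0714, 0.0702 and 0.0668 on the Printex 90 arrays and of 0.0630, 0.0680, 0.0616 and 0.0650 on the control arrays. It was the list's 1 miRNA with an unadjusted p under 0.05 (log2 difference 0.17, SE 0.064, limma adjusted p = 0.706), and the groups overlapped at 0.0668 and 0.0680 (exact permutation test, two-sided p = 0.0571, n = 4 each). The calls of miR-7a came from its brighter probe, flagged on 78 of 78 kept spots, while the dimmer probe was flagged on 3 of 79. The opposite strand miR-7a* differed by -0.06 (SE 0.071). Probes of miR-7a* had array means of 12.8 to 18.4 and 21.6 to 30.4 units, and whether that signal came from miR-7a* was not tested.

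miR-219 and miR-338-3p, which promote the maturation of oligodendrocytes, were detected on all arrays. The probes of miR-219 had array means of 16.9 to 26.1 and 19.6 to 30.8 intensity units. The often-flagged negative control probe had 17.0 to 26.3, and whether the signal of miR-219 came from its own miRNA was not tested. miR-219 measured 0.0687 ± 0.00812 after Printex 90 and 0.0659 ± 0.00433 in controls, and miR-338-3p 0.375 ± 0.0378 after Printex 90 and 0.380 ± 0.0231 in controls (SD, n = 4 each). miR-218, a miRNA of motor neurons that is also made from the Slit genes in other tissues, measured 0.294 ± 0.0165 after Printex 90 and 0.307 ± 0.0128 in controls. miR-212 measured 0.166 ± 0.0202 after Printex 90 and 0.158 ± 0.00887 in controls. For miR-346 the values were 0.262 ± 0.0334 after Printex 90 and 0.287 ± 0.0328 in controls. The limma adjusted p of these 5 lay between 0.740 and 0.918. miR-132, which shares a transcript with miR-212 and responds to neuronal activity, was above the detection rule on 1 Printex 90 and 1 control array, and miR-539 on 1 Printex 90 and 2 control arrays. The relative signal of miR-539 was 0.0522 to 0.0839 over the 8 arrays. Signals of miR-539 and miR-346 are sums over 4 probes, and that of miR-128 over 2, so levels are not compared between miRNAs. The neuroendocrine marker miR-375 was detected on all 8 arrays, at 0.125 ± 0.0401 after Printex 90 and 0.128 ± 0.0256 in controls. miR-7b, a neuroendocrine marker like miR-375 and miR-7a, was detected on no array, with 0 of its 150 kept spots flagged well above background.

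Among 259 tested miRNAs with any spread, those whose log2 signal followed miR-128 most closely over the 8 arrays were miR-720 (Pearson r = 0.89, Spearman rho = 0.48), miR-212 (r = 0.85, rho = 0.19) and miR-219 (r = 0.80, rho = 0.81). Without Printex 90 replicates 1 and 2, the lowest and the highest array for miR-128, the r over the 6 remaining arrays was 0.05, 0.41 and 0.38, so the likeness rests on those 2 arrays.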

How the data were processed

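Per the file headers, the deposited intensity values per spot were made by Agilent Feature Extraction 10.7.3.1, which subtracts background array by array. They are not normalized between arrays. Flags per spot and a total gene signal per miRNA are in the same files. Per the labels' protocols, RNA was prepared by miRvana isolation, and Agilent's miRNA labelling chemistry (Cy3) was used. The authors' deposited log2 value table, for which the sources used here state no processing, served only as an alternative. Its columns had medians of 5.41 to 5.43 and correlated with the log2 median spot signal at 0.996 or more.

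Outlier-flagged and control spots were left out, spots of a probe averaged, the probes of a miRNA summed, and the sums scaled to the array's 75th percentile among mouse miRNAs that passed detection on every array. A floor of 0.0388, the 5th percentile of detected signals, was set before log2. limma 3.58.1 (lmFit, eBayes, R 4.3.3) tested 268 miRNAs, two-sided, with Benjamini-Hochberg adjustment over all of them. Single values were compared with exact permutation tests over 70 assignments. limma was also run on simulated normal values to which no floor was applied, so that run does not cover miRNAs set to the floor. Precision is limited by how few arrays there are. The mean spot signal is not among the columns used, so normexp took the median. Named were all members, every detected miRNA of the second list, the 3 miRNAs most like each member detected on all arrays, and marker miRNAs. The members and lists were chosen with earlier results of these data known.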

Additional observations from a re-analysis of the deposited data

Results flagged for a closer look

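Dixon's test at the 95% level, which asks how far the outermost array stands from its neighbour as a share of the group's spread, was applied to 18 groups of 4 arrays, 2 for each of the 9 tested neural miRNAs. It singled out 1 array, and chance alone does so in about 1 of 20 groups. miR-212 on Printex 90 replicate 2 measured 0.1959 relative to the 75th percentile, against 0.157 on the next highest Printex 90 array (0.954 of the spread). The same array held the highest miR-128 (0.0704) and miR-129-3p (0.0444), and had the highest 75th percentile of the Printex 90 arrays (720.6 units).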

How the results depend on the processing

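The number of members detected on at least 1 array was 3, and 2 to 3 under 5 alternatives, but 1 (miR-128) when every probe had to pass. The number detected on all 8 arrays was 1, and 0 to 3 under the same 6 alternatives. Of the 611 mouse miRNAs, 240 passed on all 8 arrays and 293 on at least 1. The 6 alternatives gave 198 to 350 on all 8 arrays and 230 to 425 on at least 1. The difference in members per array stayed at or below 0 under 14 alternatives (-0.58 to 0), and from -0.58 to -0.25 with an array left out. The log2 difference of miR-128 changed sign without scaling between arrays (-0.0366) and without Printex 90 replicate 2 (-0.0017), and ran from -0.0017 to 0.063 with an array left out. It reached 0.10 with normexp, and its limma adjusted p was 0.551 to 1 over 21 alternatives. That of miR-129-3p stayed positive over 20 (0.01 to 0.10; 0.04 to 0.10 with an array left out; limma adjusted p 0.471 to 0.922). With the floor doubled, all arrays of both lay at the floor, and miR-129-3p left the test when detection on all arrays was asked. limma called 0 of all tested miRNAs under 21 alternatives and 3 without Printex 90 replicate 3 (miR-21, miR-146b and miR-135b), so 0 to 3 with an array left out. With a replicate block, limma called 0, with miR-128 at 0.03 and miR-129-3p at 0.08. Same-numbered arrays did not consistently deviate together (correlations from -0.47 to 0.44). For replicate 4 the same-number correlation of 0.44 exceeded its best with another number (0.102). These correlations cannot decide whether the numbers pair the samples. Signal over background is the limit for the members: 6 of the 8 were detected on fewer than 4 arrays.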
